A study of Mus musculus with 53 samples.

Results

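Sciatic nerve (SCN) RNA from mice with a model of type 2 diabetes (T2D) was compared with SCN RNA from control mice at 16 weeks of age, before any dietary reversal. The comparison holds 10 of the 53 samples of the series, 5 labelled HFD-STZ and 5 labelled SD, and 17881 of the 49568 gene symbols in the files. Genes were kept where their mean log2 value was at least 3.32 (log2 of 10, rounded) and no log2 value exceeded 22. All mice were male C57BL/6J. HFD-STZ mice received a high-fat diet (60% of kcal from fat) from 5 weeks of age and low-dose streptozotocin (STZ) at 12 weeks of age, as 75 mg/kg followed 3 days later by 50 mg/kg, and SD mice received standard diet without STZ. HFD mice, the prediabetic model, had the same high-fat diet without STZ and gave 7 samples at 16 weeks, which stand beside the comparison, as do 8 HFD-STZ and 8 SD samples at 24 weeks of age. STZ injures the insulin-producing beta cells of the pancreas, so the HFD-STZ group differs from the SD group in diet and in drug together, and effects of the 2 cannot be told apart without the HFD group. The labels give no animal numbers, so p-values measure the spread between these samples.

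The sciatic nerve is a mixed tissue of axons, the myelinating and non-myelinating Schwann cells that wrap them, fibroblasts, perineurial cells, vessels and resident macrophages, with fat cells in its outer sheath. In T2D, peripheral neuropathy (PN) develops with high glucose and altered lipids, and Schwann cells depend on glucose, fatty acid and cholesterol metabolism to keep myelin. Peripheral tissues also carry a circadian clock, in which Arntl (BMAL1) and Clock or Npas2 drive the Per, Cry, Nr1d and Dbp genes through E-boxes, and the products of these genes in turn switch the loop off or pass it on to output genes.

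The values are log2 expression values as deposited. On a plain log2 scale a difference of 1 is a 2-fold change, but the transformation is not given, so this may not hold, least of all for low values. The samples were nerve by their markers, since the mean of 12 myelinating Schwann cell genes was 16.72, 16.81, 16.61, 16.65 and 16.42 in the SD samples and 16.61, 16.67, 16.60, 16.38 and 16.42 in the HFD-STZ samples, and Mbp, the gene for myelin basic protein, averaged 20.0 or more in both groups. SD replicate 2 stood apart, with a mean of 12.67 for 12 skeletal muscle genes against 6.08 to 7.13 in the other SD samples and 6.22 to 8.00 in the HFD-STZ samples. Adipocyte genes varied within both groups, since the mean of 12 adipocyte genes was 8.58, 9.39, 10.75, 11.55 and 12.28 in SD replicates 1 to 5 and 10.90, 9.35, 11.67, 11.80 and 12.65 in HFD-STZ replicates 1 to 5. In bulk tissue, fewer cells of a type and less RNA per cell cannot be told apart. Library numbers in the sample titles form 8 runs of consecutive numbers, and 4 of these runs (1, 3, 4 and 5) hold 1 sample of each group. The labels do not say what a run is. Runs stand here for nothing more than shared consecutive numbers.

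No gene passed an adjusted p of 0.05 in limma's moderated test with Benjamini-Hochberg adjustment (0 of 17881, 0%), and the smallest adjusted p was 0.143. An unadjusted p under 0.05 was found for 1504 genes (8.41%), of which 714 (3.99%) were higher and 790 (4.42%) lower in HFD-STZ mice. In this test an unadjusted p under 0.05 went with an adjusted p of at most 0.586. All HFD-STZ samples lay above all SD samples for 130 genes (0.727%) and below them for 243 genes (1.36%). In each direction, the 12 genes of smallest p included between them 5 clock genes (Dbp, Ciart and Nr1d1 higher, Nfil3 and Arntl lower), 4 chaperone or co-chaperone genes (Manf, Creld2, Ahsa1 and Ahsa2, all lower) and Nnat and Slc5a7, and the other 13 belonged to neither kind. Of the genes tested, 54.3% were on the higher side in HFD-STZ nerve, with a median difference of 0.02, which is the background for the gene lists described here. With the run as a covariate, the same test leaves 3 residual degrees of freedom and rests on the 4 within-run differences. SD replicate 5 and HFD-STZ replicate 2 are the only samples of this comparison in their runs and add nothing to the difference. With this covariate 96 genes (0.537%) passed an adjusted p of 0.05, 92 higher and 4 lower. Of these, 25 had an unadjusted p under 0.05 without the run, 7 were adipocyte markers and 8 were clock or clock output genes. With all 8 groups and the run in 1 fit, 1 gene passed (Tubd1), and it was not among the 96.

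**Figure D1:**
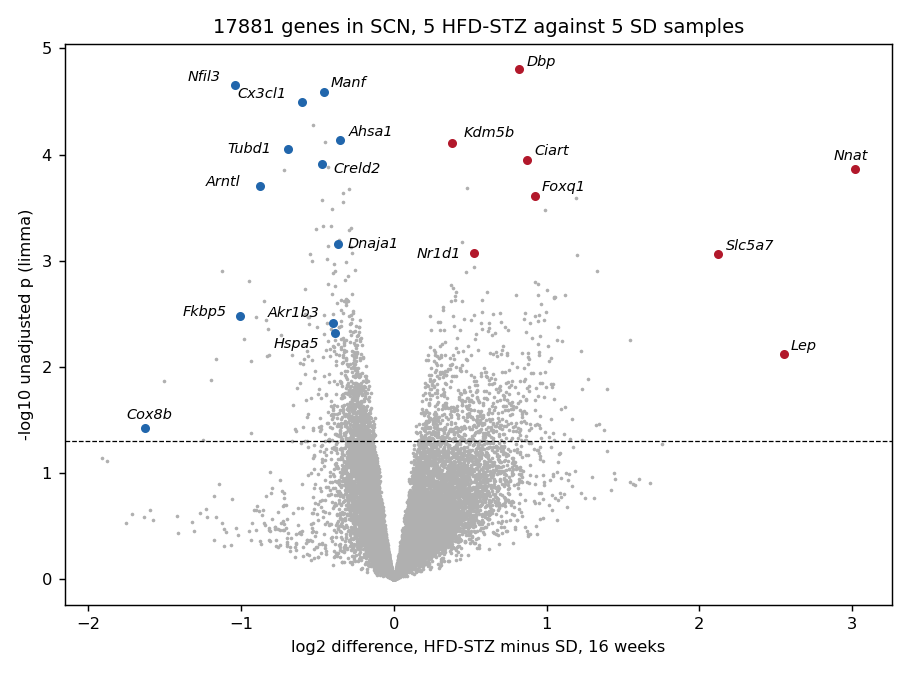
Log2 difference between 5 HFD-STZ and 5 SD samples at 16 weeks (x axis) against the unadjusted limma p on a -log10 scale (y axis), 1 point a gene, with a dashed line at the unadjusted threshold of 0.05. Dbp, Ciart, Kdm5b and Nnat (red, higher) and Nfil3, Manf, Cx3cl1 and Ahsa1 (blue, lower) lie at the top, and Nnat has the largest difference at 3.02.

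Clock genes held some of the smallest p-values, with Dbp first of all genes. Dbp and Ciart were higher in HFD-STZ nerve by 0.82 and 0.87, Arntl and Nfil3 were lower by 0.88 and 1.04 in size, and in these 4 genes the groups did not overlap. None of them passed the adjusted threshold in the test without the run. The promoters of 3 members are shown because they carry, close to the start, letters of the elements through which the loop is known to act. They are the 250 bases before the transcription start in the RefSeq table for GRCm38.p6, written 5′ to 3′ on the strand of the gene, with matches in capitals. Capitals mark the E-box CACGTG in Ciart (chr3:95882229-95882478, minus strand), the D-box form TTATGNAA in Per3 (chr4:151044666-151044915, minus strand) and the ROR element AGGTCA, read on the opposite strand as TGACCT, in Nfil3 (chr13:52981040-52981289, minus strand).
Ciart: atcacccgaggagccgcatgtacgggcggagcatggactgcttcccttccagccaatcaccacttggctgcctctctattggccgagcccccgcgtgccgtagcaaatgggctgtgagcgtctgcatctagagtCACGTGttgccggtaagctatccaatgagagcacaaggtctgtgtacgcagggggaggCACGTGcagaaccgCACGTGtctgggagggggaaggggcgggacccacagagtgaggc
Per3: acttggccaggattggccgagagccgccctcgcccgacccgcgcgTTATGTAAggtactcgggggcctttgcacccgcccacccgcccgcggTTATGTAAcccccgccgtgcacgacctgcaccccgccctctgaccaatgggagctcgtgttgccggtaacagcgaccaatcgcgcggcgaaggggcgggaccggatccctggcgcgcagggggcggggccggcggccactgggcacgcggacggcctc
Nfil3: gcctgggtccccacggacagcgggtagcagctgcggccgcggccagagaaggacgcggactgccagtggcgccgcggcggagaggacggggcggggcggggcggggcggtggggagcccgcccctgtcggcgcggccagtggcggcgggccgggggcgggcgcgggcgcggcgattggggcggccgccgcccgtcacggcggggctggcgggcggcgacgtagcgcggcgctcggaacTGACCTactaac
The Ciart window held 3 E-boxes, starting at -116, -58 and -44, the Per3 window 2 D-boxes, at -205 and -158, and the Nfil3 window 1 AGGTCA, at -12. Counted over both strands in windows that also take in the 50 bases after the start, 7.15% of 32851 RefSeq promoters held the E-box, 3.38% the D-box and 16.3% AGGTCA. Of the core clock genes, 13 of 16 had an entry in the table, and 4 held an E-box (Per1, Cry1, Ciart and Bhlhe41), 2 a D-box (Per1 and Per3) and 4 AGGTCA (Clock, Arntl, Per1 and Nr1d2). Of 11 clock output genes with an entry, 3 held an E-box (Tef, Fkbp5 and Sgk1), 0 a D-box and 4 AGGTCA (Nfil3, Sgk1, Lpin1 and Nampt). A gene was counted if any of its promoters held the letters, whereas the shares over all promoters count each promoter singly. These matches are descriptions of letters and not of bound sites.

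Dbp, which encodes a D-box-binding output factor of the clock (chr7:45705088-45710203), measured 11.62, 11.63, 11.35, 11.50 and 12.06 in the 5 SD samples and 12.61, 12.42, 12.38, 12.35 and 12.51 in the 5 HFD-STZ samples, in replicate order. Every HFD-STZ sample lay above every SD sample, and the difference was 0.82 (SE 0.12, adjusted p = 0.143), the smallest p of all genes. Ciart (chr3:95878503-95882251), a repressor of the BMAL1 complex, measured 8.15, 8.26, 8.14, 7.94 and 8.73 in SD and 9.20, 9.21, 9.08, 8.79 and 9.31 in HFD-STZ nerve. Its groups were separate as well, with a difference of 0.87 (SE 0.15, adjusted p = 0.177).

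Nr1d1, whose product REV-ERBalpha represses Arntl and Nfil3 through ROR elements, measured 12.59, 12.77, 12.18, 12.65 and 12.94 in SD and 13.16, 13.19, 13.15, 13.04 and 13.20 in HFD-STZ nerve. The HFD-STZ values lay in a narrow band above all SD values, and the difference was 0.52 (SE 0.12, adjusted p = 0.392). Dbp shares exon bases with Sphk2 and Nr1d1 with Thra, both on the opposite strand, and in non-stranded libraries reads from such bases cannot be told apart. Sphk2 itself was lower in HFD-STZ nerve by 0.22 in size (adjusted p = 0.576) and Thra differed by 0.06 (adjusted p = 0.825), against 0.82 for Dbp and 0.52 for Nr1d1. Sphk2 and Thra were named after their values were seen.

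Per3, a period gene, measured 10.84, 10.27, 10.41, 9.89 and 10.53 in SD and 11.47, 10.80, 10.80, 11.13 and 10.97 in HFD-STZ nerve, and 1 SD sample lay within the HFD-STZ range (difference 0.65, SE 0.17, adjusted p = 0.529). The output factors Tef and Hlf, which bind the same D-boxes as DBP, were also higher, by 0.39 (SE 0.10, adjusted p = 0.529) and by 0.58 (SE 0.15, adjusted p = 0.521). For Hlf the groups were separate, with SD at 10.55, 10.10, 10.52, 10.95 and 11.00 and HFD-STZ at 11.12, 11.21, 11.19, 11.33 and 11.16. For Tef, SD replicate 5 (13.27) reached into the HFD-STZ range of 13.17 to 13.40.

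On the other side of the loop, Arntl, the gene for BMAL1 (chr7:113207465-113314126), measured 10.37, 10.33, 10.01, 9.94 and 9.61 in SD and 9.35, 9.28, 9.33, 9.20 and 8.72 in HFD-STZ nerve. Every HFD-STZ sample lay below every SD sample, and the difference was -0.88 (SE 0.16, adjusted p = 0.224). Nfil3, a repressor that competes for D-boxes (chr13:52967209-52981073), measured 7.91, 8.46, 8.52, 8.15 and 8.17 in SD and 6.93, 7.43, 7.03, 7.25 and 7.37 in HFD-STZ nerve. Here too the groups were separate, with a difference of -1.04 (SE 0.15, adjusted p = 0.143). Arntl shares exon bases with the predicted gene Gm45355 on the opposite strand. Npas2, which pairs with BMAL1, differed by -0.82 (adjusted p = 0.545), while Clock, its alternative partner, differed by 0.01 (adjusted p = 0.973) and Cry1 by -0.07 (adjusted p = 0.829).

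Over the whole core clock list, 5 of 16 genes were higher and 2 lower with an unadjusted p under 0.05, against 3.99% and 4.42% of all genes, and the median difference was 0.21. Ciart, Nr1d1, Per3, Nr1d2 and Cry2 were the 5 higher genes and Arntl and Npas2 the 2 lower ones, with Nr1d2 (0.44), Cry2 (0.20), Npas2 and the genes Clock and Cry1 singled out after their values were seen. In the clock output list, 5 of 13 genes were higher and 8 lower. With an unadjusted p under 0.05, 3 were higher (Dbp, Hlf and Tef) and 4 lower (Nfil3, Fkbp5, Cdkn1a and Sgk1), against 3.99% and 4.42% of all genes. The last 3 are known for other roles too, since glucocorticoids induce Fkbp5 and Sgk1, and Cdkn1a, which encodes the p21 inhibitor of the cell cycle, is a p53 target. Sgk1 (-0.37) was named after its values were seen. Fkbp5, a co-chaperone of steroid receptors, measured 10.86, 11.10, 11.32, 12.21 and 12.00 in SD and 10.89, 10.14, 9.96, 10.56 and 10.89 in HFD-STZ nerve. Only the top of the HFD-STZ range overlapped the bottom of the SD range, at a difference of -1.01 (SE 0.27, adjusted p = 0.529).

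Dbp, Arntl and Nfil3 differed in the same direction in every shared run. Dbp was higher in the HFD-STZ sample of runs 1, 3, 4 and 5 by 0.99, 0.75, 1.00 and 1.01, and with the run as a covariate the difference was 0.94 (SE 0.08, adjusted p = 0.00485). Arntl differed by -1.03, -1.01, -0.80 and -1.22 in the same runs, at -1.01 (SE 0.11, adjusted p = 0.0107) with the covariate, and Nfil3 by -0.98, -1.43, -1.27 and -0.79, at -1.12 (SE 0.16, adjusted p = 0.0353). Ciart, Nr1d1, Per3 and Tef also passed with the covariate (adjusted p from 0.0375 to 0.0451), as did Per2, named after its values were seen. None of these clock genes passed an adjusted p of 0.05 with all 8 groups and the run in 1 fit. With any single sample left out, the core list had 4 to 7 genes higher and 2 lower with an unadjusted p under 0.05, and with the adipocyte score as a covariate the numbers were 5 and 2. The hour at which nerves were taken is not given in the sources used here.

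HFD nerve, measured against the same 5 SD samples, gave differences of 0.67 for Dbp, 0.74 for Ciart, 0.34 for Nr1d1, -0.76 for Arntl and -0.58 for Nfil3. Nfil3 ran from 6.77 to 8.46 in the 7 HFD samples and so overlapped both other groups. Tested directly, HFD-STZ and HFD nerve differed by 0.15 (SE 0.11, adjusted p = 0.987) for Dbp, by -0.12 (SE 0.20, adjusted p = 0.992) for Arntl and by -0.47 (SE 0.25, adjusted p = 0.987) for Nfil3. For Fkbp5 the direct difference was -0.80 (SE 0.25, adjusted p = 0.987), with an unadjusted p under 0.05. In that test 889 of 18206 genes had an unadjusted p under 0.05 (4.88%), and 0 genes an adjusted one, with a smallest adjusted p of 0.246.

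**Figure D2:**
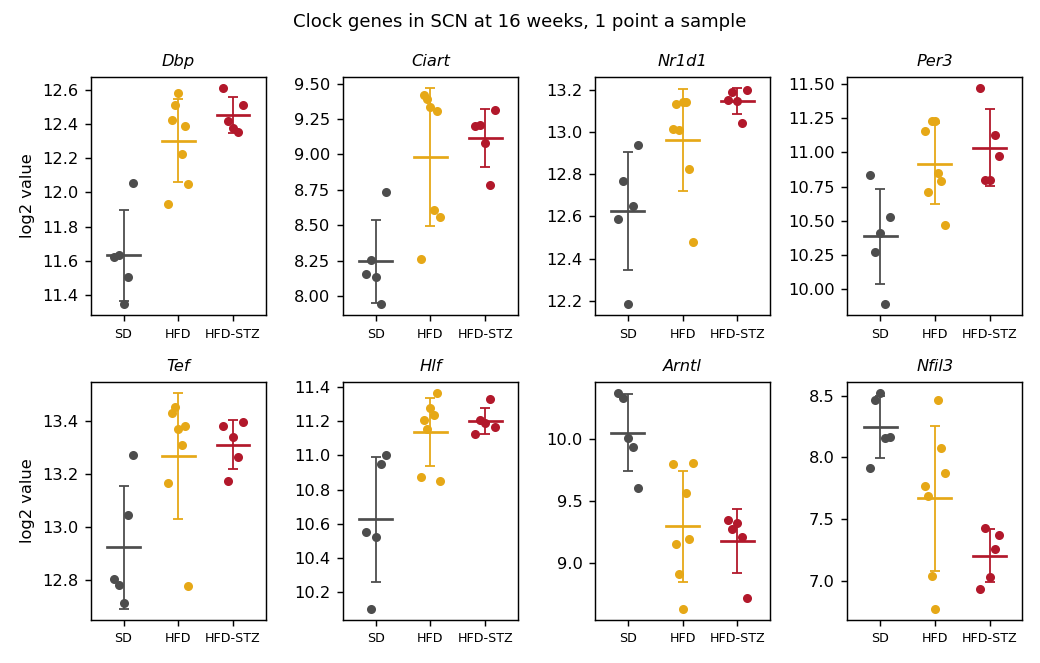
Log2 values of 8 clock genes in SCN at 16 weeks in SD (5 samples), HFD (7 samples) and HFD-STZ mice (5 samples), with points for samples, horizontal lines for means and bars for standard deviations. The HFD-STZ points of Dbp, Ciart, Nr1d1 and Hlf lie above all SD points and those of Arntl and Nfil3 below them, and those of Per3 and Tef overlap the SD points.

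Chaperone genes formed the second group, and nearly all of them were lower in HFD-STZ nerve. In the heat shock list, which holds mostly cytosolic and mitochondrial chaperones, 12 of 13 genes were lower and 9 of them had an unadjusted p under 0.05 (69.2% of the list against 4.42% of all genes), with a median difference of -0.30 and a range of -0.67 to 0.02. The endoplasmic reticulum (ER) chaperones Manf, Creld2, Hspa5 and Sdf2l1 were lower by 0.39 to 0.56 in size. The promoters of Hspe1, Hspa5 and Creld2 are shown because each holds the element of its own stress response, the heat shock element (HSE, GAANNTTC or TTCNNGAA) in Hspe1 (chr1:55087898-55088147, plus strand) and the ER stress response element (ERSE, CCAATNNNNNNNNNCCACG) in Hspa5 (chr2:34771840-34772089, plus strand) and, on the opposite strand, in Creld2 (chr15:88819396-88819645, plus strand).
Hspe1: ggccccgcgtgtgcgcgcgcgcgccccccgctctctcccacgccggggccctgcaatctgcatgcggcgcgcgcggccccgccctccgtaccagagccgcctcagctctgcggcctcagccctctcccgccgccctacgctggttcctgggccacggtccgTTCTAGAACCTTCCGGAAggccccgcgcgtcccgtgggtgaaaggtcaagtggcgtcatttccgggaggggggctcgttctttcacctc
Hspa5: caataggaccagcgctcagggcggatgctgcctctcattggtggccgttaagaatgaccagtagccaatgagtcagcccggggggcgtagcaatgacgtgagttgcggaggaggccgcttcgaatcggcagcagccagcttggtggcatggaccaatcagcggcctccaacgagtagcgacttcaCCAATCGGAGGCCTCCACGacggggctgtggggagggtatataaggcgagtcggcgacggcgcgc
Creld2: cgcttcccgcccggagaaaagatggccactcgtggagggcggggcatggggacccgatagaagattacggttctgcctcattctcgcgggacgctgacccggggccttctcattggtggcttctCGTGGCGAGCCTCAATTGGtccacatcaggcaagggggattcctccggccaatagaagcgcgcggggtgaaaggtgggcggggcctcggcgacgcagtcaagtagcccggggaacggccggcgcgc
The capitals in Hspe1 are 3 overlapping matches of the HSE forms, starting at -89, -84 and -79, in the region between Hspe1 and Hspd1, which are transcribed in opposite directions from it. Of 10 heat shock genes with a RefSeq entry, 8 held an HSE in any of their promoters (Hspa1a, Hspa1b, Hsph1, Hspb1, Dnaja1, Hspe1, Hspd1 and Bag3). Of all promoters of this length, counted singly, 15.1% held it, so the shares are not on the same footing. Dnaja1 also had RefSeq promoters without a match. The ERSE, at -65 in Hspa5 and -126 in Creld2, was in 0.119% of all promoters, and in the antioxidant and unfolded protein response list in 2 of 17 (Hspa5 and Hsp90b1). Hsp90b1 differed by -0.09 (adjusted p = 0.743), the smallest difference of the 3 genes that held the element.

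Manf, which encodes an ER-resident protein with neurotrophic activity (chr9:106838312-106891979), measured 11.30, 11.31, 11.51, 11.46 and 11.38 in SD and 10.81, 10.90, 11.02, 10.93 and 11.00 in HFD-STZ nerve. The groups were separate, with a difference of -0.46 (SE 0.07, adjusted p = 0.143). Creld2, an ER stress-induced disulfide isomerase (chr15:88819646-88826683), measured 11.83, 12.10, 11.79, 11.73 and 11.62 in SD and 11.32, 11.33, 11.38, 11.37 and 11.33 in HFD-STZ nerve, again without overlap (difference -0.47, SE 0.08, adjusted p = 0.177). Manf shares exon bases with Rbm15b, which differed by 0.05 (adjusted p = 0.854).

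Hspa5 (BiP), the main ER chaperone (chr2:34771970-34777547), measured 14.83, 15.13, 14.95, 15.30 and 15.32 in SD and 14.49, 14.67, 14.86, 14.81 and 14.77 in HFD-STZ nerve, and SD replicate 1 lay inside the HFD-STZ range (difference -0.39, SE 0.11, adjusted p = 0.537). Sdf2l1, an ER chaperone partner, and Xbp1, a transcription factor of the unfolded protein response, differed by -0.56 (SE 0.15, adjusted p = 0.529) and -0.34 (SE 0.09, adjusted p = 0.529). In the whole antioxidant and unfolded protein response list, 13 of 20 genes were lower, and the median was -0.09. Of the lower genes, 4 (Xbp1, Sdf2l1, Hspa5 and Atf3) had an unadjusted p under 0.05 (20% of the list against 4.42% of all genes). Hmox1, Nqo1 and other antioxidant genes of the list were not among these 4. Manf and Creld2 are not on the list.

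Among cytosolic chaperones, Dnaja1, an HSP40 co-chaperone of HSP70, measured 13.02, 13.29, 13.09, 13.01 and 12.90 in SD and 12.64, 12.70, 12.85, 12.64 and 12.66 in HFD-STZ nerve. No HFD-STZ sample reached the lowest SD sample (difference -0.36, SE 0.08, adjusted p = 0.376). Hspa8, the constitutive HSP70, differed by -0.33 (SE 0.09, adjusted p = 0.521), and 31.6% of its 100-base stretches recur in other transcripts, mostly pseudogenes, so its level is less certain. Ahsa1, which activates the ATPase of HSP90, measured 11.84, 12.00, 11.90, 11.90 and 11.80 in SD and 11.50, 11.56, 11.58, 11.53 and 11.51 in HFD-STZ nerve. The HFD-STZ values lay within 0.08 of each other and all below the SD values, at a difference of -0.35 (SE 0.06, adjusted p = 0.174). Its relative Ahsa2 was lower by 0.53 in size (adjusted p = 0.174), also without overlap.

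Both members of the mitochondrial chaperonin pair were lower. Hspe1 (HSP10) measured 10.91, 11.10, 11.14, 10.82 and 10.75 in SD and 10.43, 10.67, 10.65, 10.41 and 10.59 in HFD-STZ nerve without overlap (difference -0.40, SE 0.09, adjusted p = 0.457), and Hspd1 (HSP60) differed by -0.25 (SE 0.07, adjusted p = 0.545). The genes share exon bases at their common start, so part of their reads cannot be told apart. Hsph1, Hspa1b and Hspa1a, stress-induced members of the HSP70 family, differed by -0.44 (adjusted p = 0.545), -0.67 (adjusted p = 0.545) and -0.38 (adjusted p = 0.556). Hsp90aa1, an HSP90, and Serpinh1, the collagen chaperone of the ER, differed by -0.30 (adjusted p = 0.586) and -0.24 (adjusted p = 0.586). These 5 genes were named after their values were seen.

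The mean of the 13 heat shock genes was 12.35, 12.25, 12.36, 12.50 and 12.38 in the SD samples and 12.04, 12.05, 12.16, 12.07 and 12.00 in the HFD-STZ samples, with no overlap. With single samples left out, 7 to 9 of the 13 genes had an unadjusted p under 0.05, and without SD replicate 2, the sample with muscle genes, the median was -0.31. With the adipocyte score as a covariate, 10 did, at a median of -0.31. In runs 1, 3, 4 and 5, the mean of these genes differed by -0.30, -0.09, -0.29 and -0.50, and no single gene of the list passed an adjusted p of 0.05 with the run as a covariate. HFD nerve had a median difference of -0.20 from the same SD samples. HFD-STZ nerve compared with HFD nerve gave a median of -0.12, with 1 gene at an unadjusted p under 0.05.

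**Figure D3:**
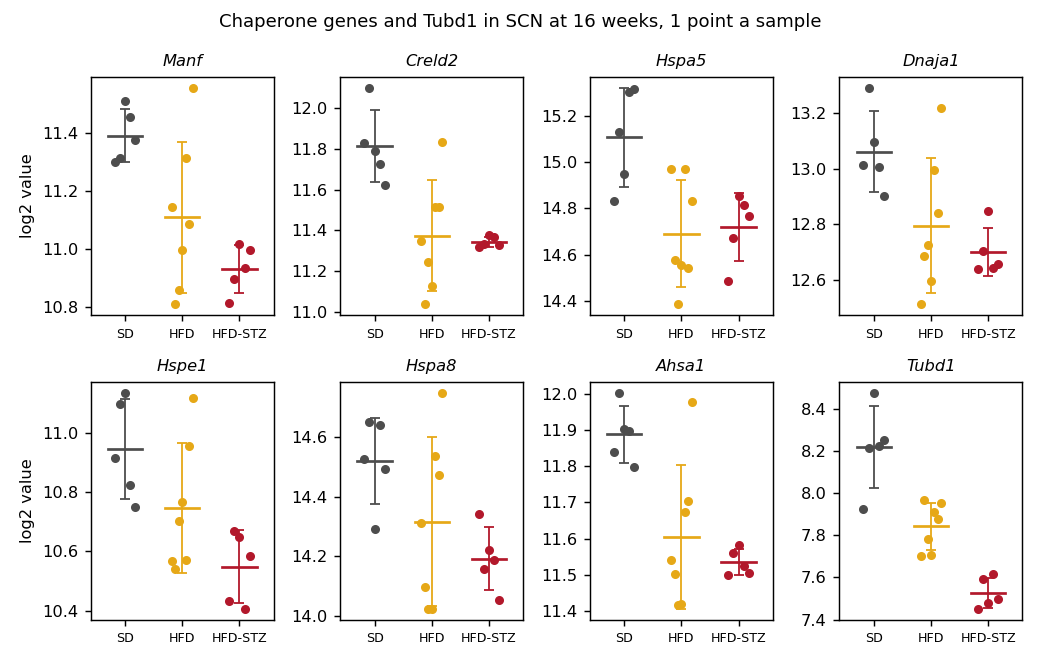
Log2 values of 7 chaperone genes and Tubd1 in SCN at 16 weeks in SD (5 samples), HFD (7 samples) and HFD-STZ mice (5 samples), with points for samples, horizontal lines for means and bars for standard deviations. HFD-STZ points lie below all SD points for Manf, Creld2, Dnaja1, Hspe1, Ahsa1 and Tubd1, and overlap them for Hspa5 and Hspa8.

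Adipocyte genes were higher in HFD-STZ nerve on average, but each group spread over several log2 units. Of the adipocyte markers, 11 of 12 were higher with a median of 0.71, and 2 of them, Lep and Plin4, had an unadjusted p under 0.05 (16.7% of the list against 3.99% of all genes). Lep, the gene for the adipokine leptin (chr6:29060220-29073877), measured 6.60, 6.62, 7.58, 8.65 and 9.52 in SD and 10.26, 7.67, 10.61, 10.88 and 12.32 in HFD-STZ nerve. HFD-STZ replicate 2, at 7.67, lay among the SD samples and the other 4 above all of them, and the difference was 2.55 (SE 0.79, adjusted p = 0.545). Plin4, a lipid droplet coat protein, differed by 1.35 (SE 0.56, adjusted p = 0.586), and Adipoq, the gene for adiponectin, by 1.31 (SE 0.90, adjusted p = 0.618) with SD at 8.34, 8.89, 11.21, 12.03 and 12.74 and HFD-STZ at 11.50, 9.70, 12.33, 12.66 and 13.55.

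In each of the 4 runs with a sample of both groups, the mean of the adipocyte genes was higher in the HFD-STZ sample. HFD-STZ replicate 2 (9.35, the lowest of its group) and SD replicate 5 (12.28, the highest of its group) had no sample of the other group in their runs. The difference with the run as a covariate takes nothing from these samples. The mean of the 12 genes differed by 2.33, 2.29, 1.05 and 1.10 in runs 1, 3, 4 and 5, Lep by 3.66, 3.99, 3.30 and 3.66 and Adipoq by 3.17, 3.44, 1.45 and 1.52. With the run as a covariate the list median was 1.59, 7 of 12 genes passed an adjusted p of 0.05, and Lep had a difference of 3.65 (SE 0.13, adjusted p = 4.54e-05). None of the 12 genes passed with all 8 groups and the run in 1 fit. Without the run, the list median rested on single samples of both groups. It was 0.32 without SD replicate 1, 0.37 without HFD-STZ replicate 5 and 0.45 without SD replicate 2, but 1.13 without SD replicate 5 and 1.14 without HFD-STZ replicate 2. HFD samples had adipocyte scores of 11.42 to 13.57, and HFD-STZ nerve compared with HFD nerve gave a list median of -1.08. In that comparison 6 of 12 genes had an unadjusted p under 0.05, against 4.88% of all genes.

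**Figure D4:**
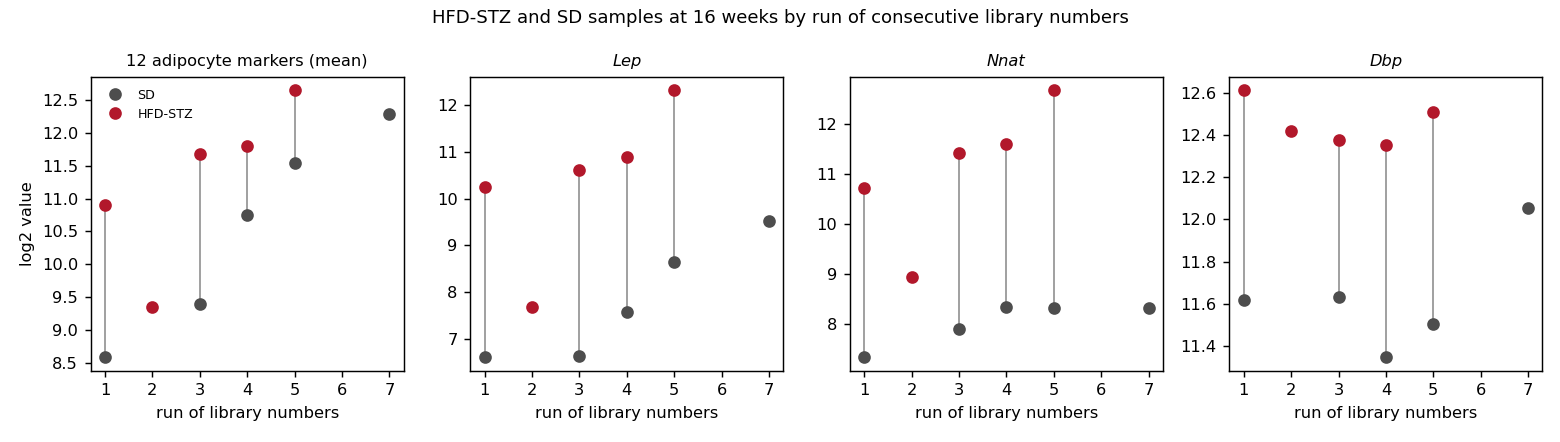
Mean log2 value of 12 adipocyte genes and log2 values of Lep, Nnat and Dbp (y axes) in the 5 SD and 5 HFD-STZ samples at 16 weeks by the run of consecutive library numbers (x axis), with grey lines joining samples of the same run. In all 4 shared runs the HFD-STZ sample is above the SD sample in each panel, by 1.05 to 2.33 for the adipocyte genes.

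Nnat and Slc5a7 had large differences, higher in HFD-STZ nerve. Nnat, which encodes neuronatin, a small ER membrane protein of neurons and fat (chr2:157560078-157562522), measured 7.34, 7.91, 8.35, 8.33 and 8.34 in SD and 10.72, 8.94, 11.43, 11.59 and 12.67 in HFD-STZ nerve. The groups did not overlap, and the difference was 3.02 (SE 0.54, adjusted p = 0.177), or 3.62 (SE 0.18, adjusted p = 0.000238) with the run as a covariate. Slc5a7, the high-affinity choline transporter (chr17:54273590-54299034), measured 4.07, 3.52, 3.82, 3.85 and 3.29 in SD and 6.19, 4.41, 5.06, 5.97 and 7.54 in HFD-STZ nerve, also without overlap (difference 2.12, SE 0.48, adjusted p = 0.392). HFD nerve ran from 10.58 to 12.60 for Nnat and from 4.61 to 9.98 for Slc5a7, and its differences from the same SD samples were 3.61 and 4.13. HFD-STZ nerve compared with HFD nerve gave -0.59 (SE 0.52, adjusted p = 0.987) for Nnat and -2.004 (SE 0.82, adjusted p = 0.987) for Slc5a7, so both genes had a lower mean in HFD-STZ than in HFD nerve. At 24 weeks, in other mice, Nnat differed by 2.28 (SE 0.55, adjusted p = 0.353) and Slc5a7 by 3.62 (SE 0.53, adjusted p = 0.0132).

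Of the 100 genes that the study lists as lipid-associated, among them Nnat, Slc5a7 and Lep, 94 were tested and 86 were higher, with a median of 0.72. The higher genes with an unadjusted p under 0.05 numbered 19 (20.2% of the 94, against 3.99% of all genes). The study chose this list on these samples, so it is not independent evidence of a direction. With the run as a covariate, 32 of the 94 passed an adjusted p of 0.05, against 0.537% of all genes. None of the 94 passed with all 8 groups and the run in 1 fit. Lep, Adipoq, Plin1, Plin4, Cidec, Fabp4 and Pparg are also on the adipocyte list, so the lists are not separate results. With the adipocyte score, which includes these genes, as a covariate, 68 genes of the study's list were higher at a median of 0.27. Part of that fall was therefore fixed in advance. The number with an unadjusted p under 0.05 went from 10 (without HFD-STZ replicate 5) to 33 (without HFD-STZ replicate 2), and was 11 without SD replicate 1, 11 without HFD-STZ replicate 4, 12 without SD replicate 2 and 30 without SD replicate 5. The median was 0.40 without HFD-STZ replicate 5. Among the genes that the study names, Lpgat1, a lysophospholipid acyltransferase, measured 10.65, 10.50, 10.84, 11.06 and 11.17 in SD and 11.05, 10.95, 11.30, 11.43 and 11.94 in HFD-STZ nerve. HFD-STZ replicates 1 and 2 lay inside the SD range (difference 0.49, SE 0.19, adjusted p = 0.586). Pla2g2e, a secreted phospholipase A2, differed by 0.81 (SE 0.35, adjusted p = 0.586), and Dgat2, which makes the last step of triglyceride synthesis, by 0.37 (SE 0.45, adjusted p = 0.757).

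Dgat2 differed between the tests with and without the run. It measured 10.73, 10.43, 10.91, 11.75 and 12.80 in SD and 11.65, 10.61, 11.77, 11.76 and 12.67 in HFD-STZ nerve, with full overlap. Within runs it differed by 0.92, 1.34, 0.86 and 0.92, at 1.01 (SE 0.10, adjusted p = 0.00877) with the run as a covariate. That difference takes nothing from SD replicate 5 (12.80) and HFD-STZ replicate 2 (10.61), which have no partner in their runs. With all 8 groups and the run in 1 fit, Dgat2 did not pass an adjusted p of 0.05. With the adipocyte score as a covariate instead, its difference was -0.06 and that of Lpl, the lipoprotein lipase gene, was -0.01. The triglyceride synthesis list had a median difference of -0.09 over 14 genes, and the lower members with an unadjusted p under 0.05 were Agpat4 at -0.23 and Agpat5 at -0.18, which encode acyltransferases.

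Cacna1e, an R-type calcium channel subunit, differed by 1.40 (SE 0.50, adjusted p = 0.576). Foxq1 and Kdm5b, a forkhead factor and a histone demethylase, were separate between groups and higher by 0.92 (SE 0.18, adjusted p = 0.228) and 0.38 (SE 0.06, adjusted p = 0.174). Lrrc1, Brip1, Stk32b, Rarg and Fbxo41, the rest of the 12 higher genes with the smallest p-values, were higher by 0.45 to 1.20.

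Cx3cl1, the gene for the membrane-bound chemokine fractalkine, measured 9.88, 9.78, 10.15, 9.95 and 9.998 in SD and 9.45, 9.31, 9.41, 9.42 and 9.16 in HFD-STZ nerve. Its groups were separate, at a difference of -0.60 (SE 0.09, adjusted p = 0.143). Tubd1, the gene for delta-tubulin, measured 7.93, 8.21, 8.47, 8.22 and 8.25 in SD and 7.45, 7.59, 7.48, 7.61 and 7.50 in HFD-STZ nerve, without overlap (difference -0.69, SE 0.12, adjusted p = 0.177). Tubd1 was the only gene to pass an adjusted p of 0.05 when all 8 groups were fitted together (adjusted p = 0.00948). Bcl2l1, an inhibitor of cell death, differed by -0.45 (SE 0.08, adjusted p = 0.174) with no overlap, and Vstm4, Lrrfip1 and Apba3 by -0.43, -0.72 and -0.29. The largest lower differences, in Cox8b (-1.63), Kcng4 (-1.51), Serpina3k (-1.25), Cidea (-1.20), Rnd1 (-1.13) and Apol10b (-0.95), came with wide spreads among the SD samples in the case of Cox8b and Kcng4. Cox8b, a muscle and brown fat subunit of cytochrome c oxidase, reached 9.24 in SD replicate 2 against 4.61 to 6.72 in the other SD samples, and without that sample its difference was -0.91.

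Genes of energy metabolism were lower in small steps. All 42 nuclear-encoded oxidative phosphorylation genes were lower in HFD-STZ nerve, with differences of -0.42 to -0.05 and a median of -0.26, and 7 of them (16.7%, against 4.42% of all genes) had an unadjusted p under 0.05. Atp5d, Ndufb5, Sdhc and Ndufa10, subunits of ATP synthase and of complexes I and II, had the smallest p-values, with differences of -0.20, -0.37, -0.24 and -0.26. SD replicate 2, high in muscle genes, also had the highest mean of these genes (12.70). With any single sample left out, 42 of 42 were lower, but the number with an unadjusted p under 0.05 went from 0 (without HFD-STZ replicate 4) and 1 (without HFD-STZ replicate 1) to 15 (without SD replicate 1) and 19 (without SD replicate 4). Without SD replicate 2 it was 8, at a median of -0.14. With the adipocyte score as a covariate 42 of 42 were lower and 0 had such a p. Skeletal muscle genes themselves were lower in 11 of 11 with a median of -1.27 and 0 had an unadjusted p under 0.05, and without SD replicate 2 the median was 0.05.

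Cholesterol synthesis genes, which Schwann cells use for myelin, were lower in 21 of 25 with a median of -0.20. Of the 25, 6 were lower and 2 higher with an unadjusted p under 0.05, against 4.42% and 3.99% of all genes. Ebp, the sterol isomerase of the pathway, measured 10.66, 11.00, 10.75, 10.69 and 10.79 in SD and 10.41, 10.43, 10.45, 10.35 and 10.49 in HFD-STZ nerve. The groups were separate, with a difference of -0.35 (SE 0.08, adjusted p = 0.376). Acat2, Nsdhl and Pmvk, all enzymes of the pathway, differed by -0.32, -0.32 and -0.38, and 35.3% of the 100-base stretches of Acat2 are shared with Acat3. Without SD replicate 2, the list median was -0.10. HFD nerve also had 21 of 25 genes lower than the same SD samples, at a median of -0.21. HFD-STZ compared with HFD nerve gave a median of 0.03.

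Fatty acid synthesis genes were lower in 17 of 19 with a median of -0.12. Acly, which makes the acetyl-CoA for the pathway, measured 13.76, 13.95, 13.73, 13.97 and 14.72 in SD and 13.66, 13.61, 13.77, 13.56 and 13.59 in HFD-STZ nerve, where SD replicate 5 stood alone above the rest (difference -0.39, SE 0.16, adjusted p = 0.586). Elovl1, a fatty acid elongase, differed by -0.31 (adjusted p = 0.586). With the run as a covariate, 12 of 19 were lower and the median was -0.06. In fatty acid oxidation, Acot1, an acyl-CoA thioesterase, was lower by 0.55 in size (adjusted p = 0.392) without overlap and Cpt1a, the entry step to mitochondria, differed by 0.29 (adjusted p = 0.586), and the median of 30 genes was -0.05.

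Genes of glucose handling differed singly. Akr1b3, the aldose reductase of the polyol pathway, which turns glucose into sorbitol, measured 13.37, 13.54, 13.39, 13.17 and 13.05 in SD and 13.11, 13.01, 12.98, 12.76 and 12.68 in HFD-STZ nerve. The ranges overlapped only at the highest HFD-STZ and the lowest SD sample (difference -0.40, SE 0.11, adjusted p = 0.529). Txnip, a glucose-induced regulator of thioredoxin, differed by 0.38 (SE 0.16, adjusted p = 0.586), and without SD replicate 2 by 0.24, where its unadjusted p was no longer under 0.05. Irs2, an insulin receptor substrate, measured 11.87, 11.69, 12.00, 11.87 and 11.86 in SD and 12.38, 12.04, 11.98, 12.21 and 12.20 in HFD-STZ nerve, with HFD-STZ replicate 3 inside the SD range (difference 0.30, SE 0.09, adjusted p = 0.531), while the insulin-restrained factors Foxo1 and Foxo3 differed by -0.19 and -0.23. The median was -0.06 over 15 polyol, hexosamine and glycation genes, 0.13 over 24 insulin and IGF signalling genes and -0.09 over 29 genes of glycolysis and pyruvate entry.

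Schwann cell lists had few genes with a small p. The median was -0.11 over the 12 myelinating, -0.01 over 9 non-myelinating and 0.27 over 9 repair Schwann cell genes. Egr2, the master regulator of myelination, measured 14.58, 14.73, 14.43, 14.30 and 14.15 in SD and 14.26, 14.07, 14.07, 14.05 and 14.02 in HFD-STZ nerve, with SD replicate 5 inside the HFD-STZ range (difference -0.34, SE 0.10, adjusted p = 0.545). Among repair genes, the neurotrophic factor Bdnf measured 3.45, 3.47, 3.80, 4.08 and 2.77 in SD and 4.50, 4.60, 4.02, 4.62 and 4.42 in HFD-STZ nerve, where only HFD-STZ replicate 3 fell below the highest SD sample (difference 0.92, SE 0.25, adjusted p = 0.529), and Artn, the gene for artemin, differed by 0.74 (SE 0.23, adjusted p = 0.545). Both genes are near the lower limit of the test. Scn7a, a sodium channel of non-myelinating Schwann cells, differed by 0.26 (adjusted p = 0.576).

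Node and paranode genes were higher in 16 of 18 with a median of 0.15 and none of the higher ones had an unadjusted p under 0.05, while Kcna1, a juxtaparanodal potassium channel, was lower by 0.41 in size (adjusted p = 0.585). The sphingolipid and myelin glycolipid list had a median of -0.07, with Fa2h and Gal3st1, which act in making myelin glycolipids, at differences of -0.28 and -0.30. The medians were 0.10 for 19 collagen chains, of which 17 were higher and 0 had an unadjusted p under 0.05 (12 of 19 higher without SD replicate 2), 0.08 for matrix proteases and their inhibitors, 0.24 for fibroblast, 0.31 for perineurial, 0.00 for endothelial and 0.12 for pericyte and smooth muscle genes. Neuron genes had a median of -0.02 over the 7 tested, and Slc5a7 was the 1 with an unadjusted p under 0.05. All 8 perineurial and all 10 fibroblast genes were higher, and with the adipocyte score as a covariate 5 and 7 of them were, at medians of 0.06 and 0.03.

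The medians were -0.02 for macrophage, -0.02 for lipid-associated macrophage, 0.07 for mast cell, 0.00 for B and plasma cell and 0.29 for neutrophil genes, with at most 1 gene in each at an unadjusted p under 0.05. The neutrophil median was -0.08 without HFD-STZ replicate 2, the sample with the lone mean of 6.73, and -0.29 with the run as a covariate. Of 11 T and natural killer cell genes listed, 6 passed the filter. A gene near the limit can pass through the group where it is higher, so their direction is not independent of the filter. All 6 were higher, with a median of 0.51, and 2 of them (33.3%, against 3.99% of all genes) had an unadjusted p under 0.05. With single samples left out, 6 of 6 were higher and 1 to 3 had such a p. In HFD nerve 7 of 7 were higher than in the same SD samples, 5 with such a p (1537 of 17966 over all genes, either direction). Cd3g, a chain of the T cell receptor complex, measured 4.16, 3.30, 3.74, 4.04 and 3.99 in SD and 4.59, 4.57, 4.21, 4.70 and 4.89 in HFD-STZ nerve without overlap, at low levels (difference 0.75, SE 0.21, adjusted p = 0.531), and Cd3e differed by 0.73 (adjusted p = 0.586). Red cell genes were higher in 6 of 7 with a median of 1.17. Of these, 3 (42.9% of the list, against 3.99% of all genes) had an unadjusted p under 0.05. Among them were Alas2 at 1.23 (adjusted p = 0.576) and Hbb-bs at 1.32 (adjusted p = 0.586), a globin gene that shares 62.6% of its stretches with Hbb-bt. The red cell median was 0.57 with the run as a covariate and 0.74 without HFD-STZ replicate 2, and 1 to 5 of the 7 genes had such a p with single samples left out. In HFD nerve the red cell median was 2.67 against the same SD samples, and HFD-STZ compared with HFD nerve gave -1.58.

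Of the signalling lists, immediate early genes had a median of 0.10, with Fosb at 0.96 (SE 0.25, adjusted p = 0.529) and Junb at 0.47 (adjusted p = 0.586) higher and Nr4a3 at -0.59 (adjusted p = 0.586) and Jund at -0.30 (adjusted p = 0.576) lower. Lcn2, an acute phase protein, measured 8.35, 8.50, 9.89, 9.83 and 9.18 in SD and 8.42, 8.62, 8.02, 8.04 and 7.97 in HFD-STZ nerve, and SD replicates 3 to 5 lay above every HFD-STZ sample (difference -0.93, SE 0.30, adjusted p = 0.546), while the acute phase list had a median of 0.22. That median was -0.09 without SD replicate 1, -0.07 without SD replicate 2, -0.05 with the muscle score and -0.36 with the adipocyte score as a covariate. Ptgs2, the inducible cyclooxygenase, differed by 0.81 (SE 0.29, adjusted p = 0.576) in an eicosanoid list with a median of 0.26. Isg15 differed by -0.54 (adjusted p = 0.545) in an interferon-stimulated list with a median of -0.10, and Cxcr4 by 0.47 (adjusted p = 0.572) and Cxcl1 by 0.51 (adjusted p = 0.586) in a chemokine list with a median of 0.04. The remaining medians were 0.26 for complement, 0.08 for MHC class II, 0.05 for p53 and DNA damage, 0.06 for cell cycle, -0.01 for lipid droplet, 0.07 for triglyceride lipolysis and 0.07 for fatty acid uptake and binding genes, and 0.57 over the 7 genes tested of those the study names. Of the 47 list medians, 17 changed sign when some single sample was left out, among them those of the macrophage, mast cell, chemokine, triglyceride synthesis and lipolysis lists, so no direction is read from them.

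**Figure D5:**
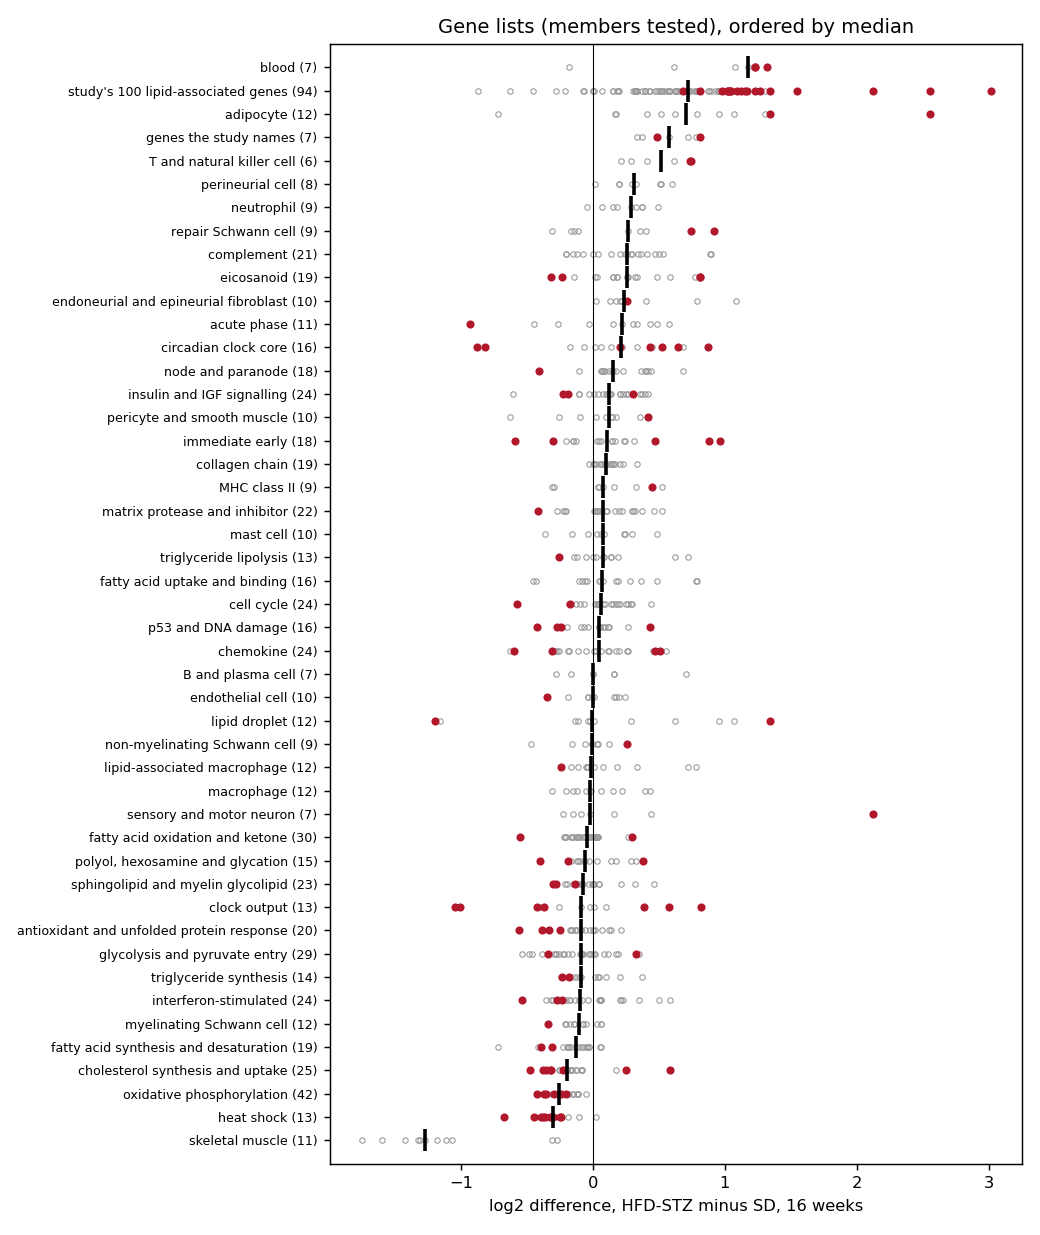
Log2 differences between HFD-STZ and SD nerve at 16 weeks (x axis) of the members of 47 gene lists (rows, with the number of members tested), as open grey points or, with an unadjusted limma p under 0.05, filled red points, and with a black bar at the median. In the heat shock row 12 of 13 points lie left of 0, 9 of them red, and all 42 oxidative phosphorylation points lie left of 0.

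At 24 weeks, in other mice, the differences of Dbp, Ciart, Nr1d1 and Hlf were nearer 0. Dbp differed by 0.11 (SE 0.18, adjusted p = 0.912) between HFD-STZ and SD nerve at 24 weeks, Ciart by 0.11, Nr1d1 by -0.21 and Hlf by -0.06, while Arntl differed by -0.49 (SE 0.20, adjusted p = 0.813) and Nfil3 by -0.65 (SE 0.23, adjusted p = 0.795), both with an unadjusted p under 0.05. At that age 12 of 16 core clock genes were lower (median -0.19) and 12 of 13 clock output genes (median -0.34). With an unadjusted p under 0.05, 3 core and 6 output genes were lower and 0 higher, against 5.99% of all genes in either direction. The change of the difference from 16 to 24 weeks, tested directly, was -0.71 (SE 0.26, adjusted p = 0.757) for Dbp, -0.74 (SE 0.24, adjusted p = 0.757) for Nr1d1 and -0.64 (SE 0.21, adjusted p = 0.757) for Hlf, all 3 with an unadjusted p under 0.05, and for Arntl 0.38 (SE 0.30, adjusted p = 0.757). In limma's test none of the 4 passed an adjusted p of 0.05, and over all genes 0 of 17874 did, with 836 (4.68%) at an unadjusted p under 0.05.

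Manf differed by -0.19 at 24 weeks, Creld2 by -0.15, Hspe1 by -0.02 and Dnaja1 by 0.05, and the heat shock list had a median of -0.07. Its change was a median of 0.20, with 0 genes at an unadjusted p under 0.05. Lep differed by 2.51 (SE 0.64, adjusted p = 0.419). Of genes higher at 16 weeks with an unadjusted p under 0.05, 53.4% of 698 were also higher at 24 weeks, against 49.1% of all genes higher at 16 weeks, and of the lower ones 56.2% of 788 were lower, against 48.5%. At 24 weeks, 1069 of 17850 genes (5.99%) had an unadjusted p under 0.05 and 6 an adjusted one.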

How the data were processed

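RNA-seq of sciatic nerve was compared between 5 HFD-STZ and 5 SD samples at 16 weeks, grouped by GEO's labels. Per the labels and the study's methods, the authors aligned reads with HISAT2 to mm10, counted them without strand with featureCounts, and deposited 1 file a sample of log2 values normalized between samples, whose transformation is not given in the sources used here (DESeq2 is named among the tools). The sources differ on the library kit. Depth is unknown, because no counts were used here, so no counting error is given. The test took in 17881 genes whose mean log2 value over the 10 samples reached 3.32 (log2 of 10, rounded), leaving out 25 genes with a value above 22 in any of the 53 samples. The test was limma (version 3.58.1 in R 4.3.3) with a variance trend and Benjamini-Hochberg adjustment over all genes tested, checked on simulated data. The same test gave HFD-STZ against HFD nerve, HFD against SD nerve, HFD-STZ against SD nerve at 24 weeks and the change between ages. All p-values are two-sided.

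Named genes were the 12 with the smallest p in each direction, the 8 with the largest difference in each direction among those with an unadjusted p under 0.05, up to 4 of smallest p in each of 47 lists, and those the study names. Predicted and clone names were left out of the first 2. The comparison, its lists and these rules were chosen with earlier results of these data known. Coordinates are GENCODE M21 (GRCm38) gene spans. Shared sequence is the share of 100-base stretches of a gene's longest transcript found in transcripts of other genes. Promoters are 300-base RefSeq windows, with positions counted from the RefSeq start. GENCODE spans of Ciart, Nfil3 and Hspa5 reach into the printed windows, so the sources place these starts differently. The matches at -12 in Nfil3 and -65 in Hspa5 lie inside those spans. The alternatives tried were other filters, scalings, variance models, covariates and leaving out each sample. The 10 samples correlated at 0.965 to 0.994 and no pair was identical. Samples of the 4 shared runs had deviations from their group means that correlated at 0.53, -0.02, 0.22 and 0.30. Some genes that these rules name are not reported here.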

Additional observations from a re-analysis of the deposited data

Results flagged for a closer look

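Some single samples lay far from the other 4 of their group, by a gap test that flags about 1 in 20 groups by chance. It flagged 8 of the 190 groups of values examined, near that rate. Arntl was 8.72 in HFD-STZ replicate 5, where the other HFD-STZ samples lay between 9.20 and 9.35, and so was farther from the SD samples than the rest. Egr2 was 14.26 in HFD-STZ replicate 1, against 14.02 to 14.07 in the others. Acly was 14.72 in SD replicate 5, against 13.73 to 13.97, and Ptgs2 was 3.18 in SD replicate 2.

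SD replicate 2 stood apart for 2 list means, 12.67 for the skeletal muscle genes and 12.7 for the oxidative phosphorylation genes. The neutrophil mean was 6.73 in HFD-STZ replicate 2 and the MHC class II mean was 10.07 in HFD-STZ replicate 5.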

How the results depend on the processing

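The count of genes with an adjusted p under 0.05, 0 in the reported test, was 1 with all 8 groups in 1 fit, 1 with all 8 groups and the run of library numbers, and 96 with the run as a covariate in the 2 groups. It was 0 to 1 when single samples were left out (Dbp without SD replicate 5, Nnat without HFD-STZ replicate 2). The unadjusted count of 1504 was 3175 without a filter on low values and 3405 with the run as a covariate, and 863 (without HFD-STZ replicate 4) to 2165 (without SD replicate 5) when single samples were left out. Centring each sample on its median gave 551 higher and 908 lower genes with an unadjusted p under 0.05.

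Of the named genes, 8 changed sign in some alternative. With the run as a covariate, Ltf differed by -0.29, Retnlg by -0.21, Cd79a by -0.0856 and C1qb by 0.00972. With the adipocyte score as a covariate, Lpl differed by -0.00722 and Dgat2 by -0.0575. Pmp22, at -0.21 in the reported test, was 0 with quantile normalization. With single samples left out, Tnnt3 ranged from -1.76 to 0.0520 (the latter without SD replicate 2), Cd79b from -0.297 to 0.0300 (without HFD-STZ replicate 3), and Ltf from -0.0674 and Retnlg from -0.0666 (both without HFD-STZ replicate 2) to 0.807 and 0.612. The cause was not tested. None of these genes had an unadjusted p under 0.05 in the reported test. HFD-STZ against HFD nerve and the change between ages gave 0 genes with an adjusted p under 0.05 in the alternatives run for them, with unadjusted counts of 421 to 1528 and 398 to 2440. These did not include the run in the compared groups alone, quantile normalization, the adipocyte and muscle scores, or leaving out HFD or 24-week samples. The 2 groups share no replicate numbers in the labels, so samples were set against each other only by the run of library numbers, whose meaning the labels do not give. The number of samples, 5 a group, limits the precision, and depth is unknown.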
